A study of Homo sapiens with 4 samples.

Results

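The SLC25 family, also called the mitochondrial carrier family, supplies most of the transporters that move metabolites across the mitochondrial inner membrane. Members were taken as the protein-coding genes whose symbol starts with SLC25A, after the gene identifiers of the count files had been matched to symbols. This gave 48 genes among 62700 annotated identifiers, with SLC25A6 listed under 2 of them. 43 members had enough counts to be tested, among 18139 genes tested in all.

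The RNA came from HEK293T cells, an established human embryonic kidney line that carries the SV40 large T antigen. T4A cells were transiently transfected with an EYFP-tagged, α-amanitin-resistant RPB1, which is the largest RNA polymerase II subunit, in which the fourth residue of the heptad repeats in the carboxy-terminal domain (CTD) was changed from threonine to alanine. WT cells received the same resistant RPB1 with an unchanged CTD. Both groups were kept in α-amanitin at 2.5 µg/ml for 48 hours, starting 1 day after transfection, so that the endogenous polymerase was inhibited in both. Each group had 2 libraries of polyadenylated RNA, and no untreated or untransfected cells were analysed here.

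Total counts were 23465029 and 19257217 in T4A, against 33063535 and 24695291 in WT. The SLC25 members took 0.384% and 0.389% of them in T4A, against 0.359% and 0.370% in WT. POLR2A, which encodes RPB1, had 5380 and 5480 CPM (counts scaled to a library total of 1e+06) in T4A, against 3770 and 2760 CPM in WT. The construct and the endogenous gene were counted together, so this level does not check the labels. Of the marker genes of the line, VIM lay between 233 and 276 CPM and NEFL between 112 and 128 CPM over the 4 libraries, whereas PAX8 was listed at 0 in all of them. The blood markers HBB, CD3E and PTPRC were at or close to 0.

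As background, carriers of this family are small proteins built from repeats of one membrane module, and most work as exchangers that open alternately to the cytosol and to the matrix. Their substrates include ADP and ATP, phosphate, Krebs cycle acids, amino acids, carnitine esters, nucleotides, cofactors, iron and glutathione. They are encoded in the nucleus, and the TIM22 complex inserts them into the inner membrane. A few members work elsewhere, such as SLC25A17 in peroxisomes and SLC25A46 on the outer membrane.

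Promoter sequence was looked at because members moved in both directions under a polymerase mutation. RefSeq windows of 300 bases around the start (GRCh38.p14) were matched for 40 of the 48 members. GGGCGG, the letters bound by SP factors, was present on either strand in 28 of these 40 windows (70.0%). Of all 35116 windows, which were not limited to genes tested here, 45.0% held it. GGGCGG was found for 7 of 7 members that rose, 2 of 4 that fell and 18 of 26 that were not called. CCAAT, the letters bound by NF-Y, was present for 4 of 7 members that rose, 2 of 4 that fell and 13 of 26 that were not called, against 34.6% of all windows. CGGAAG, an ETS core, was present for 1, 2 and 10 members of these groups, against 19.5% of all windows. TATAAA was present in 11.5% of all windows and in 3 of the 40 members, of which only SLC25A5 was called. These matches describe letters and no binding was measured. The 90 bases before the start of 2 members that rose and 2 that fell are shown 5′ to 3′ on the gene's strand, with matches to these motifs on either strand in capitals. They are those of SLC25A5 (plus strand, chrX:119468354-119468443) and SLC25A39 (minus strand, chr17:44324824-44324913), which rose, and SLC25A13 (minus strand, chr7:96322099-96322188) and SLC25A36 (plus strand, chr3:140941746-140941835), which fell. All of these hold GGGCGG and do not stand for the rest. SLC25A24 and SLC25A46, which fell, had CGGAAG but no GGGCGG in their windows. SLC25A3, which rose, had none of these motifs in its 90 bases.
SLC25A5: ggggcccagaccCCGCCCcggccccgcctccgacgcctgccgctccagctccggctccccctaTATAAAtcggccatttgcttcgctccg
SLC25A39: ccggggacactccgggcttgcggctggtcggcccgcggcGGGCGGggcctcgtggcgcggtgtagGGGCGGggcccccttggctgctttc
SLC25A13: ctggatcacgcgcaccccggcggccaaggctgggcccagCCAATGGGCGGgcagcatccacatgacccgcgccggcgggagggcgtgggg
SLC25A36: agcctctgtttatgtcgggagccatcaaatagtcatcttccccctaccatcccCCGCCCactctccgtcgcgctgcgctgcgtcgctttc

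To compare genes of different length, CPM was divided by exonic length in kilobases (CPM per kb). A handful of carriers made up most of the family on this scale. SLC25A5, an ADP/ATP carrier, was the highest member at 636 and 623 CPM per kb in T4A, against 550 and 546 in WT. SLC25A39, which is needed for glutathione import into mitochondria, followed at 259 and 250 CPM per kb in T4A, against 211 and 207 in WT. SLC25A1, the citrate carrier, and SLC25A3, the phosphate carrier, came next. These 4 members held 79.1% and 78.1% of the family's CPM per kb in T4A, against 76.3% and 76.3% in WT. SLC25A6 and SLC25A32 could not be read from these counts, as described below. Ranks, shares and sums of the family therefore cover only what was counted. With the length of the coding transcript in place of all exons, SLC25A23 took the place of SLC25A1 among the top 4, which then held 78.0% and 76.9% in T4A, against 76.6% and 76.1% in WT. The ranking below SLC25A39 therefore depended on the length used.

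**Figure D1:**
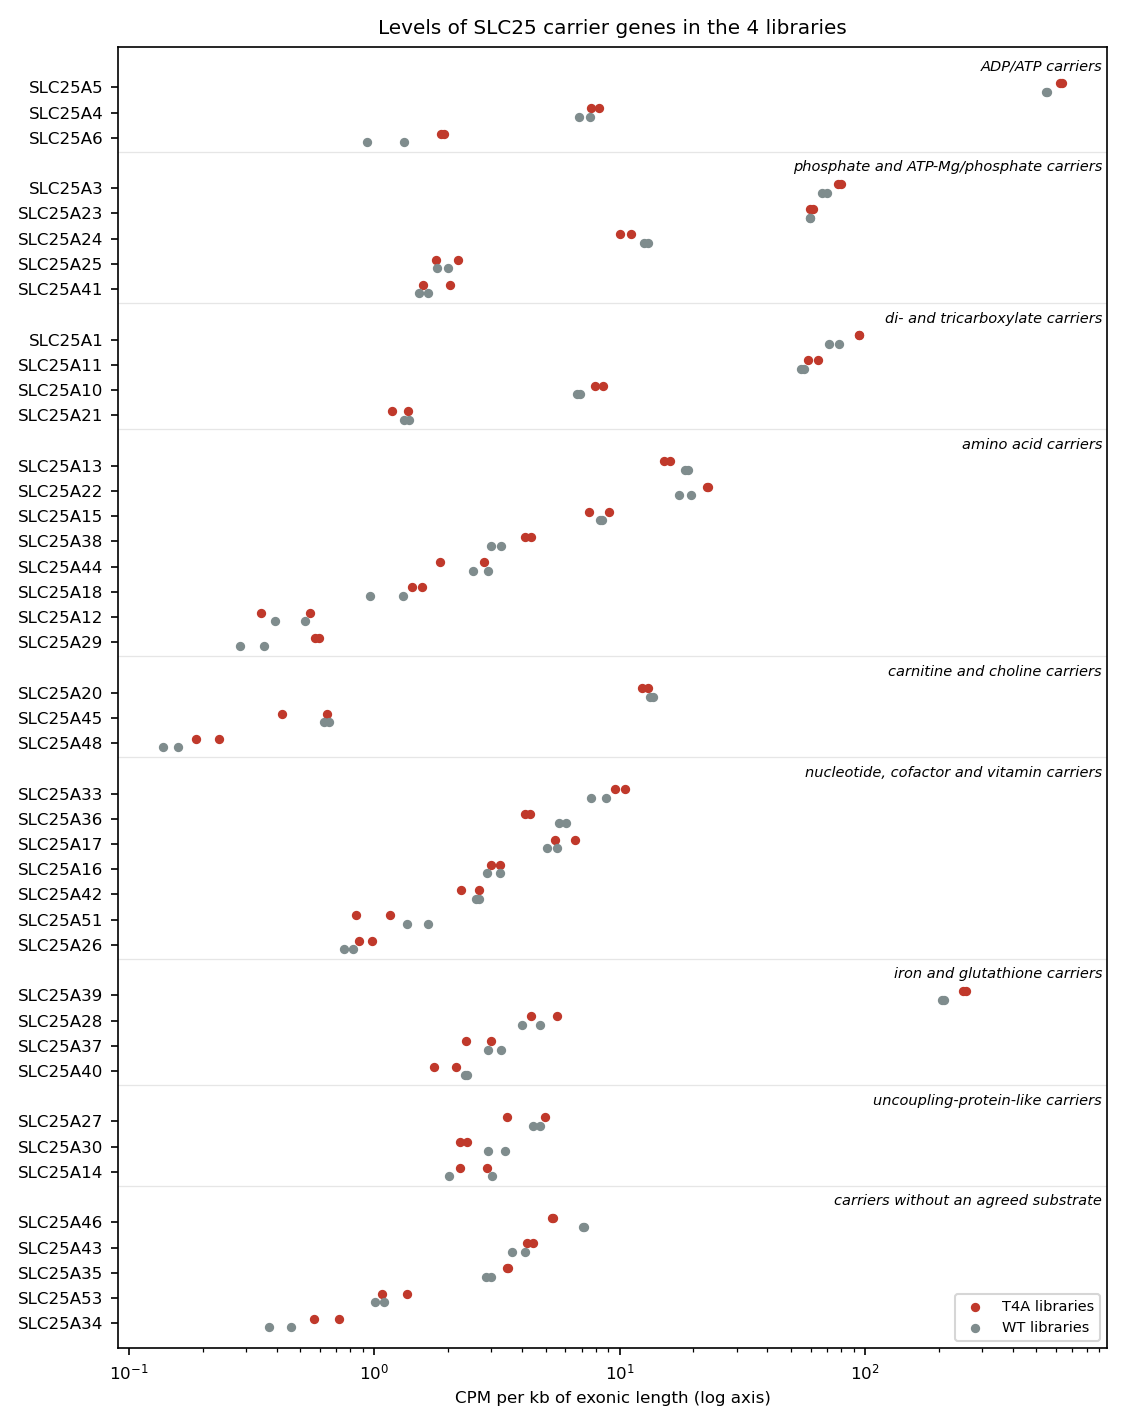
Level of the tested SLC25 members reported here, in CPM per kilobase of exonic length (log axis), with 1 point per library, T4A and WT. SLC25A5 lies highest at 636 and 623 CPM per kb in T4A, against 550 and 546 in WT, and most members lie below 10 CPM per kb.

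Summed over members, the family stood at 1350 and 1340 CPM per kb in T4A, against 1180 and 1180 in WT. In CPM the sums were 3970 and 3980 in T4A, against 3540 and 3570 in WT, so the groups did not overlap on either scale. With 2 libraries against 2, an exact permutation test cannot go below p = 0.333, and no test of these sums is given. The levels are shares of a library, so fewer cells of a kind and less RNA per cell cannot be told apart.

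By substrate class, 4 sums lay higher in both T4A libraries than in both WT libraries. Of all single genes tested, 59.0% also separated the groups without overlap, in either direction. ADP/ATP carriers stood at 646 and 633 CPM per kb in T4A, against 558 and 555 in WT. Iron and glutathione carriers stood at 268 and 260 in T4A, against 221 and 217 in WT, nearly all of it SLC25A39. Di- and tricarboxylate carriers stood at 163 and 168 in T4A, against 136 and 141 in WT, most of it SLC25A1 and SLC25A11. Each of these sums rested on 1 or 2 abundant genes. Phosphate and ATP-Mg/phosphate carriers were at 153 and 155 CPM per kb in T4A, against 142 and 147 in WT. The 3 lowest classes lay the other way. Carnitine and choline carriers were at 13.7 and 13.1 in T4A, against 14.1 and 14.5 in WT, and carriers without an agreed substrate at 15.3 and 14.8 in T4A, against 15.4 and 15.4 in WT. In the latter class only SLC25A46 was lower, at 5.36 and 5.28 CPM per kb in T4A, against 7.19 and 7.07 in WT. Its other 4 tested members had log2 fold changes above 0, none of them called, and the class median was 0.21. The uncoupling-protein-like carriers were at 8.60 and 9.61 in T4A, against 10.7 and 9.86 in WT. The amino acid class (54.0 and 57.8 in T4A, 54.0 and 52.7 in WT) and the nucleotide, cofactor and vitamin class (27.7 and 30.4 in T4A, 27.8 and 28.7 in WT) did not separate the groups. As a share of the family as counted, the ADP/ATP class was nearly the same in both groups. It was at 47.9% and 47.2% in T4A and 47.4% and 47.0% in WT, with its member SLC25A6 not readable.

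**Figure D2:**
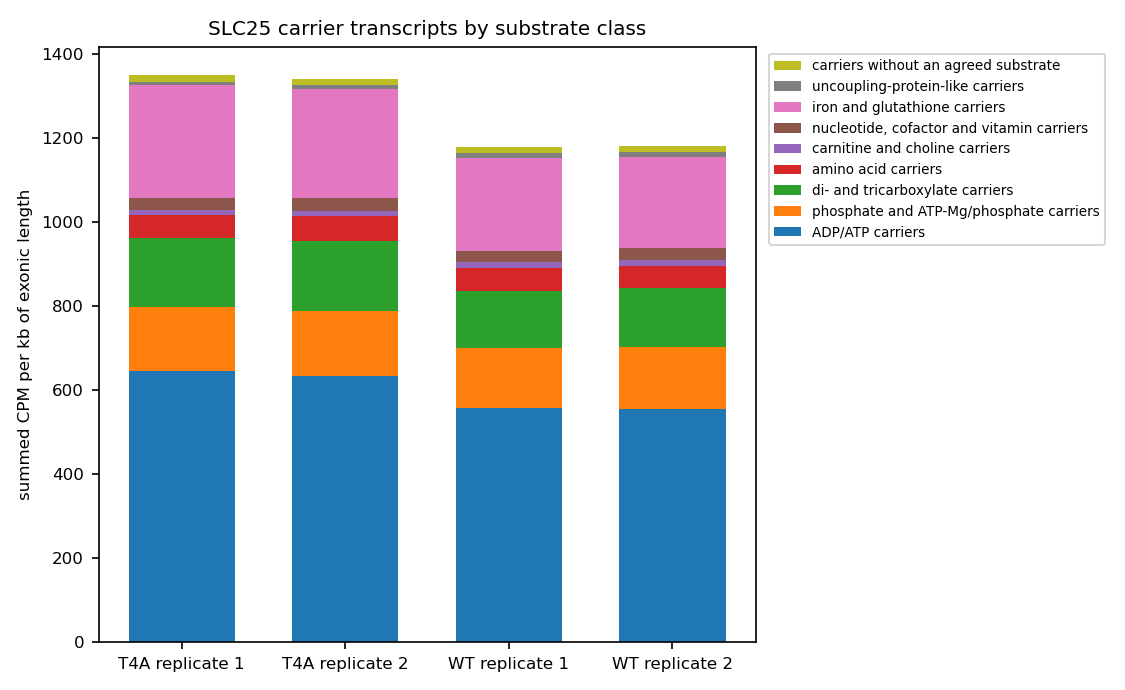
Summed CPM per kilobase of exonic length in each T4A and WT library, as stacked bars with 1 colour per substrate class. The ADP/ATP carriers, at the bottom, stand at 646 and 633 in T4A, against 558 and 555 in WT, and the uncoupling-protein-like carriers take the smallest part at 8.60 and 9.61 in T4A, against 10.7 and 9.86 in WT.

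The comparison of T4A with WT asked which carrier transcripts differed between cells given the 2 constructs. POLR2A CPM was also higher in T4A, with construct and endogenous gene counted together. The fourth CTD residue and the amount of RPB1 transcript therefore cannot be told apart. At an adjusted p under 0.05 in edgeR's quasi-likelihood test with Benjamini-Hochberg adjustment, 7 of the 43 tested members rose (16.3%), against 10.7% of all genes tested, and 5 fell (11.6%), against 13.0% of all genes. Upper quartile scaling in place of TMM gave 10 that rose and 3 that fell. Most of the changes were small. Of the 43 tested members 1, SLC25A29, both passed this threshold and changed by more than 1.5-fold, against 7.41% of all genes tested. The median log2 fold change was 0.15 over the tested members (0.08 without WT replicate 1) and −0.01 over all genes tested. The 4 libraries separated the groups without overlap for 28 members (65.1%), 20 of them higher and 8 lower in T4A, against 59.0% of all genes. The study calls the duplicates biological replicates, while no label names a culture for each, so the p-values rest on a spread between libraries that may be partly technical.

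Members that rose came from 6 of the 9 substrate classes, and members that fell from 5. The 7 that rose summed to 2930 and 2900 CPM in T4A, against 2460 and 2470 CPM in WT. The 5 that fell summed to 226 and 239 CPM in T4A, against 293 and 300 CPM in WT. Those that rose were thus on the whole abundant transcripts, with a median level of 189 CPM in T4A and 149 CPM in WT, whereas the mean levels of those that fell lay between 21.5 and 86.0 CPM in WT. The 31 members not called had a median of 11.8 CPM in T4A and 11.5 CPM in WT. Small changes pass more readily at high counts, so these levels do not show that abundant members rose more. Over the 43 tested members, Spearman's rho of the log2 fold change with mean CPM in WT was −0.26.

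**Figure D3:**
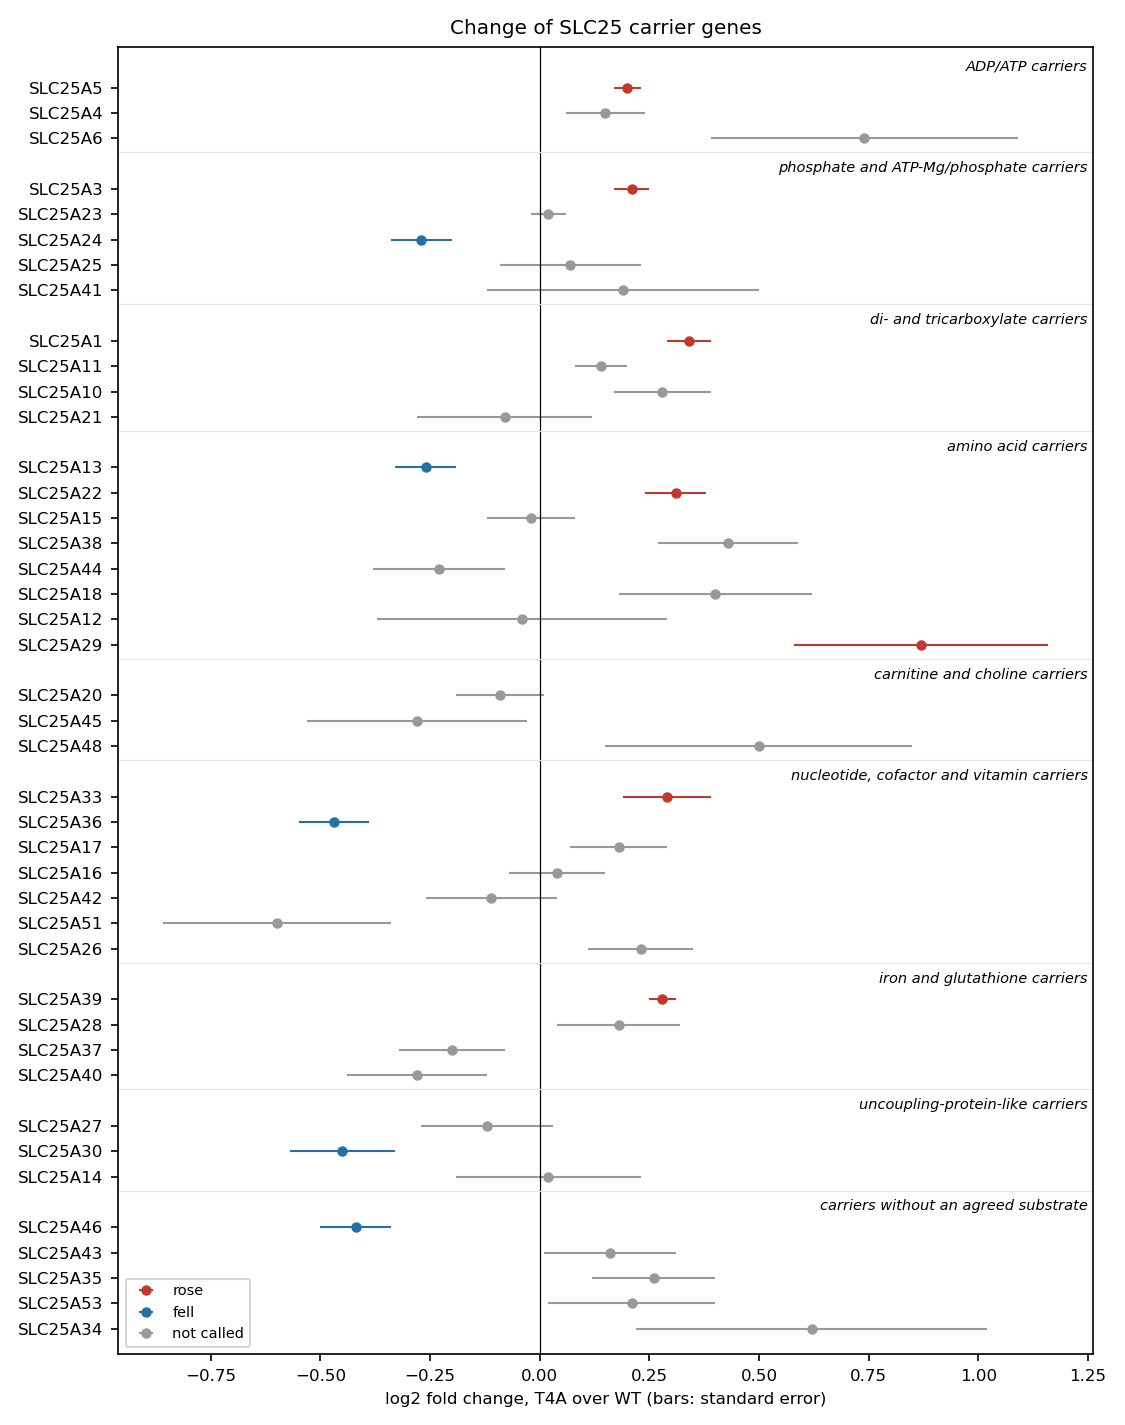
Change of the tested members reported here, grouped by substrate class, as log2 of T4A over WT with bars for the standard error. The 7 members that rose span 0.20 to 0.87 and the 5 that fell span −0.47 to −0.26.

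ADP/ATP carriers exchange matrix ATP for cytosolic ADP and so link the respiratory chain to the rest of the cell. SLC25A5 (chrX:119468444-119471396, GRCh38) had 988 and 969 CPM in T4A, against 855 and 849 CPM in WT. It rose by 0.20 ± 0.03 on the log2 scale (± SE here and throughout, adjusted p = 0.000117). SLC25A4, the isoform typical of heart and muscle, had 39.8 and 37.0 CPM in T4A, against 32.9 and 36.5 CPM in WT, a log2 fold change of 0.15 ± 0.09 that did not pass (adjusted p = 0.276). Both T4A libraries lay above both WT libraries for each of these genes, narrowly so for SLC25A4. SLC25A31, an isoform known from testis, had 2 and 0 counts in T4A, against 15 and 10 in WT, and was not tested. The make-up of the class hardly differed, since SLC25A5 held 98.4% and 98.5% of its CPM per kb in T4A, against 98.5% and 98.4% in WT.

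SLC25A6, the other widely used ADP/ATP carrier, could not be read from these counts. The gene lies in the pseudoautosomal region (X chromosome copy at chrX:1386152-1392113) and has 2 identifiers in the files. The X record was 0 in all 4 libraries. The other record held 66 and 56 counts in T4A, against 69 and 37 in WT, a log2 fold change of 0.74 ± 0.35 (adjusted p = 0.144). The sources used here do not give how reads that match both copies were treated, so SLC25A5's share of the class is a share of what was counted. Of the SLC25A5 pseudogenes, 9 had a row in the files, and together their counts were 10 and 13 in T4A, against 11 and 11 in WT.

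In the phosphate class, 1 member rose and 1 fell. SLC25A3 (chr12:98593686-98606367) brings in the phosphate used for ATP synthesis. It had 691 and 712 CPM in T4A, against 593 and 624 CPM in WT, and rose by 0.21 ± 0.04 on the log2 scale (adjusted p = 0.000342). SLC25A24 (chr1:108134043-108200343), a calcium-regulated ATP-Mg/phosphate carrier, had 67.4 and 74.9 CPM in T4A, against 84.5 and 87.5 CPM in WT. It fell, with a log2 fold change of −0.27 ± 0.07 (adjusted p = 0.00686), but without T4A replicate 1 the value was −0.20 (adjusted p = 0.0546). The related SLC25A23 had 299 and 293 CPM in T4A, against 291 and 291 CPM in WT, a log2 fold change of 0.02 ± 0.04 (adjusted p = 0.788). SLC25A25 and SLC25A41, of the same type, were low and had log2 fold changes of 0.07 ± 0.16 and 0.19 ± 0.31.

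Di- and tricarboxylate carriers move Krebs cycle acids. SLC25A1 (chr22:19175581-19178736) exports citrate, the source of acetyl groups for lipid synthesis in the cytosol. It had 189 and 189 CPM in T4A, against 142 and 156 CPM in WT, and rose by 0.34 ± 0.05 on the log2 scale (adjusted p = 8.25e-05). The oxoglutarate carrier SLC25A11 had 145 and 159 CPM in T4A, against 139 and 136 CPM in WT, with a log2 fold change of 0.14 ± 0.06 that did not pass (adjusted p = 0.0725), and 0.21 (adjusted p = 0.0121) without T4A replicate 1. Both T4A libraries were above both WT libraries for SLC25A1 and SLC25A11. The dicarboxylate carrier SLC25A10 had a log2 fold change of 0.28 ± 0.11 (adjusted p = 0.0822), and 53.4% of its exonic bases lay outside other genes. The oxodicarboxylate carrier SLC25A21 had a log2 fold change of −0.08 ± 0.20.

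Amino acid carriers went both ways. SLC25A22 (chr11:790475-798281), a glutamate carrier, had 105 and 105 CPM in T4A, against 89.7 and 80.0 CPM in WT, and rose by 0.31 ± 0.07 on the log2 scale (adjusted p = 0.00168). SLC25A13 (chr7:96120220-96322098), the aspartate/glutamate carrier called citrin, had 56.3 and 59.5 CPM in T4A, against 70.3 and 68.3 CPM in WT. It fell, with a log2 fold change of −0.26 ± 0.07 (adjusted p = 0.0124), and with −0.23 (adjusted p = 0.121) without WT replicate 1. The ratio of SLC25A22 to SLC25A13 counts was 1.86 and 1.77 in T4A, against 1.28 and 1.17 in WT. This ratio needs no scaling between libraries, but the pair was picked after its calls. It therefore restates them and is no separate support. SLC25A12, the paralog of SLC25A13 known from brain and muscle, had a log2 fold change of −0.04 ± 0.33 at 0.446 CPM per kb in T4A and 0.458 CPM per kb in WT.

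SLC25A29 (chr14:100278567-100306444), a carrier of basic amino acids, had the largest log2 fold change of any tested member at 0.87 ± 0.29 (adjusted p = 0.0311). Its level was low, with 4.45 and 4.25 CPM in T4A, against 2.12 and 2.65 CPM in WT, so it ranked 42 by CPM per kb in WT. The value was 0.84 (adjusted p = 0.0619) without T4A replicate 1, 0.72 (adjusted p = 0.228) without WT replicate 1 and 1.03 (adjusted p = 0.0504) without WT replicate 2. The other tested amino acid carriers did not pass. Their log2 fold changes were 0.43 ± 0.16 for the glycine carrier SLC25A38, 0.40 ± 0.22 for the glutamate carrier SLC25A18, −0.02 ± 0.10 for the ornithine carrier SLC25A15 and −0.23 ± 0.15 for the branched-chain amino acid carrier SLC25A44. Without T4A replicate 2, SLC25A44 was at −0.55 (adjusted p = 0.00131). SLC25A2, an ornithine carrier paralogous to SLC25A15, was listed at 0 in all 4 libraries.

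A pair of paralogous nucleotide carriers changed in opposite directions. SLC25A33 (chr1:9539465-9585173) and SLC25A36 (chr3:140941836-140980995) both carry pyrimidine nucleotides, which mitochondria need to copy and transcribe their DNA. SLC25A33 had 36.9 and 40.7 CPM in T4A, against 29.6 and 34.0 CPM in WT, and rose by 0.29 ± 0.10 on the log2 scale (adjusted p = 0.0356). SLC25A36 had 42.7 and 44.4 CPM in T4A, against 58.7 and 62.4 CPM in WT, and fell, with a log2 fold change of −0.47 ± 0.08 (adjusted p = 0.000153). Counts of SLC25A33 per count of SLC25A36 were 0.866 and 0.916 in T4A, against 0.505 and 0.546 in WT. This pair was also picked after its calls, so the ratio restates them. The rise of SLC25A33 was 0.22 (adjusted p = 0.155) without T4A replicate 2 and 0.19 (adjusted p = 0.371) without WT replicate 1.

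The other nucleotide, cofactor and vitamin carriers were not called. SLC25A51, the NAD carrier, had a log2 fold change of −0.60 ± 0.26 (adjusted p = 0.104). It was at 2.86 and 3.93 CPM in T4A, against 5.64 and 4.61 CPM in WT, and without T4A replicate 2 its value was −0.84 (adjusted p = 0.0205). The S-adenosylmethionine carrier SLC25A26 had 0.23 ± 0.12, the peroxisomal SLC25A17 had 0.18 ± 0.11, and SLC25A16 and SLC25A42, linked to coenzyme A, had 0.04 ± 0.11 and −0.11 ± 0.15. SLC25A32, which carries folate or FAD, held 0 and 4 counts in T4A, against 1 and 4 in WT. Only 19.2% of its exonic bases lay outside other genes, and a readthrough gene overlapped it, so these counts cannot be read as its expression. SLC25A52, an intronless paralog of SLC25A51, had 0 and 0 counts in T4A, against 2 and 0 in WT.

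Iron and glutathione carriers were led by SLC25A39 (chr17:44319628-44324823). It had 912 and 882 CPM in T4A, against 745 and 729 CPM in WT, and rose by 0.28 ± 0.03 on the log2 scale (adjusted p = 3.82e-06), the smallest adjusted p of the family. Its paralog SLC25A40 had a log2 fold change of −0.28 ± 0.16 (adjusted p = 0.232). The mitoferrins bring in iron for haem and iron-sulphur clusters, and did not pass either. SLC25A28 (mitoferrin-2) had a log2 fold change of 0.18 ± 0.14 and SLC25A37 (mitoferrin-1) had −0.20 ± 0.12, which was −0.39 (adjusted p = 0.0324) without T4A replicate 1.

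The uncoupling-protein-like carriers and those without an agreed substrate held 1 called member each, and both fell. SLC25A30 (chr13:45393316-45434016), first described in kidney, had 15.2 and 16.3 CPM in T4A, against 19.8 and 23.2 CPM in WT. Its log2 fold change was −0.45 ± 0.12 (adjusted p = 0.00975), and −0.34 (adjusted p = 0.203) without WT replicate 2. SLC25A46 (chr5:110738145-110765157), an outer membrane protein that takes part in mitochondrial fission and fusion, had 44.3 and 43.6 CPM in T4A, against 59.5 and 58.5 CPM in WT. It fell, with a log2 fold change of −0.42 ± 0.08 (adjusted p = 0.000407). Replicates of SLC25A46 differed by about 1 CPM in each group, and the groups were far apart.

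SLC25A27, the highest uncoupling-protein-like carrier per kb of all exons, although below SLC25A30 in CPM, had 11.4 and 16.3 CPM in T4A, against 15.5 and 14.5 CPM in WT, so the groups overlapped (log2 fold change −0.12 ± 0.15, adjusted p = 0.640). SLC25A14 had 0.02 ± 0.21. Of the carriers without an agreed substrate, SLC25A43, SLC25A35, SLC25A53 and SLC25A34 had log2 fold changes of 0.16, 0.26, 0.21 and 0.62, none of which passed. SLC25A47 held 3 and 0 counts in T4A, against 2 and 0 in WT, and was not tested. Carnitine and choline carriers had no called member. SLC25A20, which brings acylcarnitines in for fatty acid oxidation, had 24.8 and 23.3 CPM in T4A, against 25.2 and 26.0 CPM in WT (log2 fold change −0.09 ± 0.10, adjusted p = 0.604). With the trend over exonic length in all genes removed, its value was −0.29 (adjusted p = 0.0523, and 0.0388 with the replicate number as a block as well). The choline carrier SLC25A48 had a log2 fold change of 0.50 ± 0.35 and SLC25A45 had −0.28 ± 0.25.

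Exonic length, taken over all annotated exons of a gene, moved with the change across all genes. With the tested protein-coding genes in 5 equal-sized bins of exonic length, the median log2 fold change was 0.26, 0.07, −0.04, −0.16 and −0.30 from the shortest bin to the longest. The members' medians in the same bins were 0.20, 0.18, 0.02, −0.22 and 0.23, over 9, 12, 9, 10 and 3 members. Members that rose had a median exonic length of 3865 bases and those that fell 6794 bases, although SLC25A3 rose at 8896 bases and SLC25A13 fell at 3710 bases. Over the 43 members, Spearman's rho of the log2 fold change with exonic length was −0.30, a description of genes that share the same libraries. With the trend over all genes removed, 7 of the 12 calls were kept. SLC25A36 (−0.24, adjusted p = 0.0458), SLC25A46 (−0.24, adjusted p = 0.043) and SLC25A13 (−0.32, adjusted p = 0.00477) still fell. SLC25A3 (0.41, adjusted p = 5.93e-07), SLC25A39 (0.21, adjusted p = 0.000359), SLC25A22 and SLC25A29 still rose, whereas SLC25A5 came to −0.01 (adjusted p = 0.861) and SLC25A1 to 0.14 (adjusted p = 0.070). With the replicate number as a block in the same fit, 8 of the 12 calls were kept, SLC25A1 among them (0.15, adjusted p = 0.038), and 6 members rose and 4 fell. The part of length in these changes was not tested further.

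**Figure D4:**
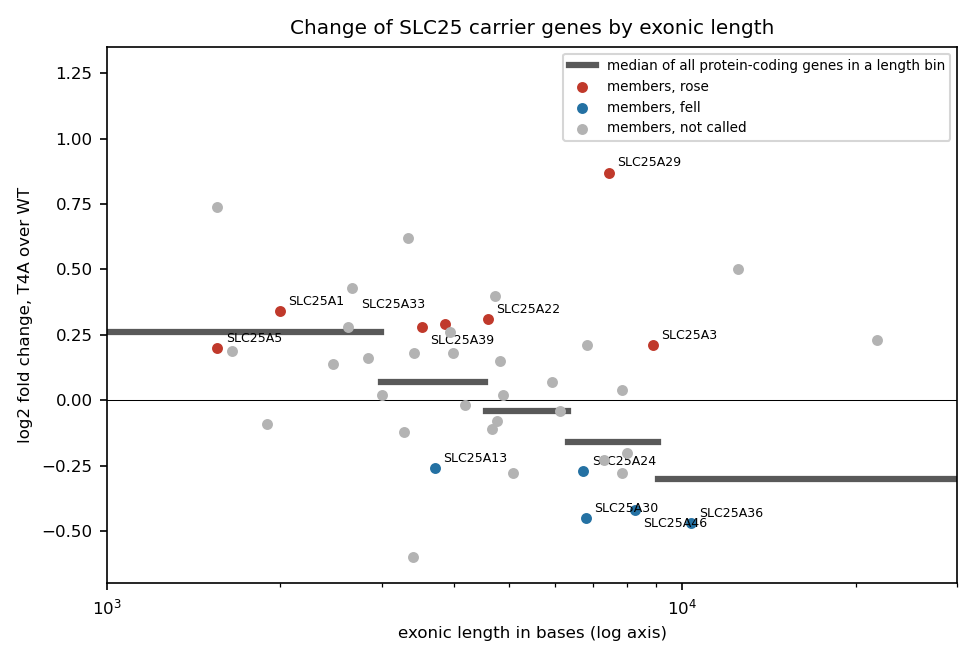
Log2 fold change of T4A over WT against exonic length in bases (log axis), with 1 point per tested member reported here and dark lines for the median of all tested protein-coding genes in each length bin. The lines step down through 0.26, 0.07, −0.04, −0.16 and −0.30, and the first and last lines stop at the edge of the plot although their bins extend beyond it.

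Other genes of mitochondrial transport were counted from lists of 35 genes, of which 32 were tested. 10 of them rose (31.2%), against 10.7% of all genes tested, and 2 fell (6.25%), against 13.0%. Their median log2 fold change was 0.09, against −0.01 over all genes. The count that rose was 13 with upper quartile scaling in place of TMM and 7 with library totals. The count that fell was 1 without T4A replicate 2 or WT replicate 2, and 3 without T4A replicate 1. The carrier import pathway, which escorts carriers through the intermembrane space to the inner membrane, had 4 of 9 tested genes that rose and 1 that fell, with a median of 0.46. TIMM8A, one of its small chaperones, had 464 and 431 CPM in T4A, against 290 and 243 CPM in WT, and rose by 0.75 on the log2 scale (adjusted p = 2.04e-08). TIMM13, its partner, had 181 and 176 CPM in T4A, against 130 and 129 CPM in WT (log2 fold change 0.46, adjusted p = 1.31e-06). TIMM8B rose by 0.52 (adjusted p = 2.25e-05). Exonic length was 3082 bases for TIMM8A, 1664 for TIMM13 and 1166 for TIMM8B, and the median of this list was 1785 bases. TIMM22, the channel of the insertion complex, was listed at 0 in all 4 libraries, which was not read as absence. Among relatives that lack the SLC25A name, MTCH1 rose by 0.23, at 526 and 553 CPM in T4A, against 457 and 465 CPM in WT, and UCP2 had −0.16, which did not pass. Of 16 tested inner membrane transporters of other families 4 rose and 1 fell. The pyruvate carrier subunit MPC2 had 76.9 and 79.8 CPM in T4A, against 59.5 and 58.5 CPM in WT, and ABCB10 had 108 and 101 CPM in T4A, against 134 and 139 CPM in WT. Of the 3 outer membrane porins VDAC2 rose, with a log2 fold change of 0.21 (adjusted p = 0.00199).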

How the data were processed

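The authors deposited 1 table of raw read counts per gene for each of 4 libraries (2 T4A, 2 WT) of HEK293T polyadenylated RNA. The submitters' notes name Trimmomatic 0.38, HISAT2 2.2.1, featureCounts 2.0.1 and hg38. Alignment was unstranded per the methods, so sense and antisense reads were not separated, and for multimapped reads no setting is given in the sources used here. Symbols and exonic lengths came from GENCODE release 44, in its version lifted to the genome build before hg38. It held 60877 of 62700 identifiers, 59852 of them in the same version. The methods name an earlier GENCODE release for counting. Because of the release and the build, exonic lengths, and the levels per kb and overlaps that rest on them, may differ from the gene models counted. Coordinates came from RefSeq GRCh38.p14.

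Counts were scaled by TMM, filtered with filterByExpr and tested in edgeR 4.0.16 (R 4.3.3) by glmQLFit and glmQLFTest, with Benjamini-Hochberg adjustment over 18139 genes and a threshold of 0.05. The SE is the absolute log2 fold change over the root of F. Levels are CPM on TMM-scaled libraries. DESeq2 1.42.0 and limma 3.58.1 (voom), other scalings and filters, a replicate block, removal of the exonic length trend and leaving out each library were alternatives. The scripts were tested on simulated data. Chi-square per degree of freedom between replicates was 4.56 in T4A and 5.66 in WT, so the replicates within a group were not copies of each other.

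Library values are given for called members, ADP/ATP carriers and the highest member of each class. Untested members are given by counts, and pathway lists by counts with up to 3 called genes each. The members and all lists were chosen with earlier results of these data known. The values of 1 tested member are not reported here, although counts, sums and medians over the members include it.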

Additional observations from a re-analysis of the deposited data

How the results depend on the processing

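The counts of 7 members that rose and 5 that fell were also given by DESeq2 size factors, limma-voom and the fit with the replicate number as a block. The numbers pair the libraries by label only (correlation of deviations −0.00379), and the block with all 12 calls kept gave 7 and 5. SLC25A3, SLC25A22, SLC25A36, SLC25A39 and SLC25A46 kept their call in all 14 alternatives. Upper quartile scaling moved the median of all genes to 0.08, against −0.01 with TMM, and gave 10 members that rose and 3 that fell. Library totals gave 5 and 5, at a median of −0.08 over all genes. Over all genes, 1935 rose and 2351 fell in the main scaling, against 2690 and 1718 with upper quartile scaling and 1352 and 2987 with library totals. Removing the length trend gave 5 members that rose and 3 that fell. The members' median was 0.23 with upper quartile scaling, 0.07 with library totals, 0.05 with the length trend removed, 0.04 with block and length together and 0.08 (without WT replicate 1) to 0.15 leaving out 1 library. Without 1 library, 5 to 7 members rose and 4 to 7 fell. SLC25A29 lost its call with library totals (0.79, adjusted p = 0.051), no filter (0.85, 0.050) and DESeq2 (0.89, 0.0502), against 0.87 in the main test, so its size hardly moved. SLC25A33, at 0.29 in the main test, lost its call with library totals (0.21, adjusted p = 0.152), no filter (0.26, 0.0559) and the length trend removed (0.24, 0.100). SLC25A30 (−0.32, adjusted p = 0.0799) and SLC25A24 (−0.15, 0.171) lost theirs with the length trend removed, and SLC25A13 (−0.18, 0.0910) and SLC25A24 (−0.19, 0.0574) with upper quartile scaling. SLC25A26 rose with the length trend removed (0.56, adjusted p = 0.00259), and with the block as well SLC25A20 fell (−0.29, adjusted p = 0.0388). The length used was that of all annotated exons, which for SLC25A26 was 21792 bases, against 2035 bases in its coding transcript. Of the other transport genes, 1 fell with upper quartile scaling and DESeq2, 4 with library totals and 1 to 3 without 1 library, while 7 to 10 rose without 1 library. The other transport genes that rose numbered 10 in the main test. They numbered 13 with upper quartile scaling, 12 with DESeq2 size factors, 7 with library totals and 9 with the length trend removed. SLC25A5's share of its class in T4A was 98.5%, against 98.6% by coding transcript length and 95.9% by counts without length. The causes of these shifts were not tested.

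Of the called members, SLC25A5 alone changed sign, to −0.01 with the length trend removed, with and without the block. Among members not called, SLC25A11 and SLC25A41 both came to −0.02 in those fits. SLC25A12 came to 0.05 and, with the block, 0.04, and to 0.04 with upper quartile scaling. SLC25A14 came to −0.10 and, with the block, −0.09, to −0.06 with library totals and to −0.01 without the filter. With upper quartile scaling SLC25A15 was 0.06 and SLC25A21 0.01. With library totals SLC25A16 was −0.04, SLC25A23 −0.06 and SLC25A25 −0.01, and without the filter SLC25A23 was −0.01. Leaving out 1 library, the values spanned −0.40 to 0.26 for SLC25A12, −0.24 to 0.35 for SLC25A14, −0.17 to 0.11 for SLC25A15, −0.04 to 0.12 for SLC25A16, −0.19 to 0.02 for SLC25A21, −0.10 to 0.21 for SLC25A25, −0.40 to 0.12 for SLC25A27, −0.01 to 0.35 for SLC25A28, −0.01 to 0.35 for SLC25A41, −0.24 to 0.01 for SLC25A42, −0.55 to 0.04 for SLC25A44 and −0.61 to 0 for SLC25A45.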
